A study of Mus musculus with 3 samples.

Results

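Hemoglobin transcripts were found in 1918 of 2758 spots across 3 sections of injured mouse tibialis anterior muscle. They made up 33890 of 31248677 unique molecular identifiers (UMIs), or 0.108%. Spots were placed in classes by their number of hemoglobin UMIs alone. There were 488 spots with 10 or more (called hemoglobin-rich here), 1430 with 1 to 9 and 840 with none (hemoglobin-free). The classes were then compared within each section for the estimated cell type content of the spots, their mitochondrial and ribosomal protein transcripts and their depth.

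The muscles came from C57BL/6J mice aged 5 months. They were injected with notexin at 2, 5 or 7 days before collection (days post injury, dpi). Notexin is a phospholipase from snake venom that breaks down myofibers. All 3 groups were injured, 1 section stood for each, and no uninjured section was analysed here. In this Visium assay a fresh frozen section lies on barcoded spots that capture polyadenylated RNA, so each spot samples a patch of tissue in which cells of several types can lie. For each of 27 cell types the authors deposited a theta value, their BayesPrism estimate, from 0 to 1, of how much of the RNA in a spot came from that type. The sections lay on 1 slide in separate capture areas, so time point, animal and capture area cannot be told apart. Spots of a section are neighbors and not replicates, so no test was made and no p-value is given. Intervals are exact Clopper-Pearson 95% intervals and cover counting error only.

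Hemoglobin carries oxygen in red blood cells and is assembled from alpha and beta globin chains. The red blood cells of mammals lose their nucleus as they mature, and the globin mRNA in circulating blood is left over from their precursors and is richest in young red cells (reticulocytes). In muscle these cells travel in capillaries that run along the myofibers, are fed by arteries wrapped in smooth muscle and are drained by veins. Fast myofibers of mice are of type IIb, which are glycolytic, or type IIx, which are more oxidative, and oxidative muscle generally has a denser capillary bed. These statements are background and not results of the sections.

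The GENCODE vM21 annotation of the mouse build mm10 (GRCm38) holds 10 protein-coding hemoglobin genes, 5 of beta type on chromosome 7 and 5 of alpha type on chromosome 11. The adult alpha chain is encoded by Hba-a1 (chr11:32283511-32284465, plus strand) and Hba-a2 (chr11:32296489-32297298, plus strand). The adult beta chain is encoded by Hbb-bs (chr7:103826534-103828096, minus strand) and Hbb-bt (chr7:103812524-103813996, minus strand). The remaining genes include the embryonic chains Hba-x, Hbb-y and Hbb-bh1. The 426 coding bases of Hba-a1 and Hba-a2 differed at 1 position (C381T, counted from 1 at the first base of the start codon, Hba-a1 first), and the 441 coding bases of Hbb-bs and Hbb-bt differed at 1 position (C417T, Hbb-bs first). Outside the coding bases the transcripts differ too, with 699 and 554 bases for Hba-a1 and Hba-a2 and 628 and 703 for Hbb-bs and Hbb-bt. Reads there may therefore also tell the copies apart. The coding stretch of 41 bases around each difference is shown as the only coding place where a read could do so, with the differing base in capitals.
Hba-a1, coding bases 361 to 401: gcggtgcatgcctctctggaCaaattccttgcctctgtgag
Hba-a2, coding bases 361 to 401: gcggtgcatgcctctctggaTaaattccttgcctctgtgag
Hbb-bs, coding bases 397 to 437: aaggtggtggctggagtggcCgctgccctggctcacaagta
Hbb-bt, coding bases 397 to 437: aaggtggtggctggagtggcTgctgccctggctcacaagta
Of all stretches of 100 bases in the Hba-a1 transcript, 56.5% occurred unchanged in that of Hba-a2, and 62.6% of those of Hbb-bs occurred in Hbb-bt. A count for a single copy would therefore be uncertain. The values below are the authors' sum over hemoglobin genes. Which gene symbols entered the sum is not given in the sources used here, and no single hemoglobin gene was analysed.

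The first question was how much hemoglobin RNA a spot held in each section. At 2 dpi the spots had a median of 0 hemoglobin UMIs, a 90th percentile of 2 and a maximum of 451. In the section of 5 dpi the median was 3, the 90th percentile 23 and the maximum 492, and at 7 dpi they were 5, 36 and 586. Low counts were thus the rule in every section, beside a long tail of rich spots. In the section of 2 dpi 26 of 859 spots were hemoglobin-rich (3.03%, interval 1.99 to 4.40%). The section of 5 dpi had 183 of 933 (19.6%, interval 17.1 to 22.3%), and that of 7 dpi had 279 of 966 (28.9%, interval 26.04 to 31.9%). The intervals of the 3 sections did not overlap, although sections were single and the difference was not tested against the spread between animals. Just at the limit, 2, 14 and 23 spots had exactly 10 hemoglobin UMIs at 2, 5 and 7 dpi, and 0, 20 and 34 had 9.

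Depth differed between the sections and had a part in these shares. In time order the median spot had 5786, 11221 and 15135 UMIs. In time order, 27.4%, 85.5% and 91.6% of spots had any hemoglobin UMI, with intervals of 24.4 to 30.5%, 83.1 to 87.7% and 89.7 to 93.3%. After each spot was thinned to 5000 UMIs, and the 374, 144 and 107 shallower spots were left out, these shares were 22.99%, 71.7% and 71.9%. The share of hemoglobin-rich spots after the same thinning was 2.46%, 11.9% and 12.6%. At this depth the sections at 5 and 7 dpi were within 1 percentage point of each other on both measures. Thinned to 1000 UMIs with every spot kept, the share of spots with a hemoglobin UMI was 10.6%, 35.4% and 40.4%. The section at 2 dpi remained well below the others at both depths. No spot type known to lack blood was available to set a background level for the lowest counts.

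The hemoglobin percentage of a section depended on how spots were combined. With all UMIs pooled it was 0.125% at 5 dpi and 0.128% at 7 dpi, which were 4.52 and 4.62 times the value at 2 dpi. The mean of the spots' percentages was 0.0302%, 0.121% and 0.191% at 2, 5 and 7 dpi, and their median was 0, 0.0287% and 0.0353%. The mean stood above the pooled value at 7 dpi, where shallow spots were richer in hemoglobin than deep ones. In the shallowest of 5 depth groups at 7 dpi (1059 to 7956 UMIs) hemoglobin made up 0.442% of UMIs, and in the deepest (21098 to 48442 UMIs) 0.0823%. Spearman's rho between hemoglobin percentage and UMI count over the 966 spots was -0.29, against 0.051 at 2 dpi and 0.018 at 5 dpi. The number of hemoglobin UMIs rose with depth, with a rho of 0.12, 0.37 and 0.090 at 2, 5 and 7 dpi. These correlations are across spots of 1 library that share a denominator, and are descriptions.

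Hemoglobin UMIs were concentrated in few spots. The hemoglobin-rich spots held 73.8%, 85.1% and 87.5% of all hemoglobin UMIs in time order. It took 8 spots at 2 dpi (0.931% of the section) to reach 50% of the hemoglobin UMIs, 29 at 5 dpi (3.11%) and 35 at 7 dpi (3.62%). Spots with 100 or more hemoglobin UMIs numbered 1, 34 and 40 and held 28.6%, 54.9% and 53.4%. The sections at 5 and 7 dpi were alike in this respect, whereas at 2 dpi 1 spot carried much of the total. Without that spot the pooled percentage at 2 dpi was 0.0198% in place of 0.0276%, and without the top spot of each section the values at 5 and 7 dpi were 6.11 and 6.26 times that at 2 dpi.

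**Figure D1:**
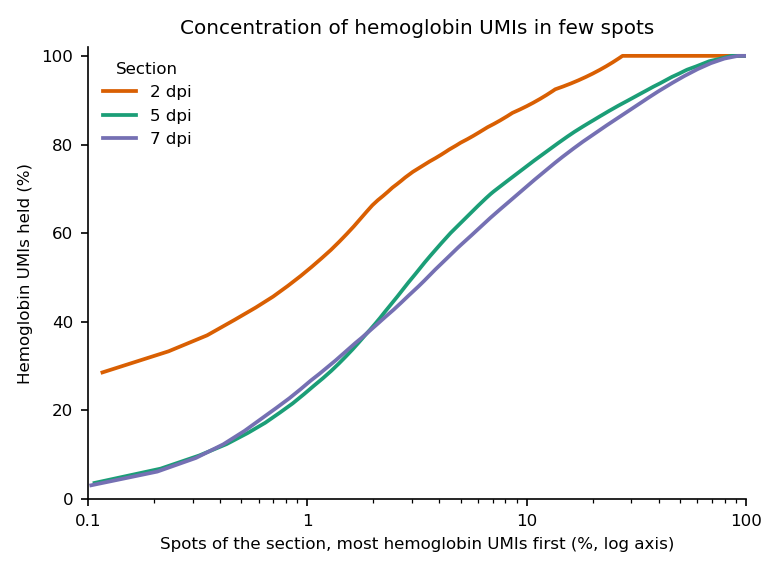
Cumulative percentage of a section's hemoglobin UMIs (y axis) held by its spots, ordered from the most hemoglobin UMIs to the fewest (x axis, percent of spots on a log scale), with 1 line per section. The line for 2 dpi starts at 28.6% with its first spot, while those for 5 and 7 dpi start at 3.64% and 3.12% and run close together.

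The spots with the most hemoglobin differed in what surrounded the blood signal. The top spot at 2 dpi had 451 hemoglobin UMIs of 5651 (7.98%). It had a neural theta of 0.103, the highest of the section, a vein endothelial theta of 0.0219 (rank 31 of 859 spots) and an adipogenic FAP (fibro-adipogenic progenitor) theta of 0.0306, beside a type IIb myonuclei theta of 0.729. Nerve and vein types were thus high in the same spot. The next 4 spots at 2 dpi had 44 to 75 hemoglobin UMIs. Of these, 3 had type IIx myonuclei as their first or second type (theta 0.0820 to 0.355), and 1 was led by patrolling monocytes (theta 0.266) and M1 macrophages (0.192).

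The top 5 spots at 5 dpi had 340 to 492 hemoglobin UMIs, or 1.68% to 2.73% of their UMIs. All 5 were rich in myofibers, with a summed myonuclei theta of 0.811 to 0.891, and type IIx theta in them ranged from 0.156 to 0.446. Those at 7 dpi had 570 to 586 hemoglobin UMIs and were less alike. The first (586 UMIs, 4.95%) had type IIx theta of 0.191 and a vein endothelial theta of 0.0331, rank 15 of 966 spots. Spots 3 and 4 in rank were myofiber-rich, with type IIx theta of 0.309 and 0.158, and spot 4 had the highest hemoglobin percentage of any spot, 8.75% of 6617 UMIs. Spots 2 and 5 instead had fusing myocytes, progenitors about to join into fibers, as the type next to type IIb myonuclei (theta 0.233 and 0.159), and type IIx theta of 0.000817 and 0.0817.

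Hemoglobin classes were next compared for the 27 cell types, as the ratio of mean theta in hemoglobin-rich over hemoglobin-free spots. Theta is a fraction of transcripts, so more cells of a type and more RNA per cell cannot be told apart. The classes also differed in depth. The median UMI count of hemoglobin-free, middle and hemoglobin-rich spots was 5549.5, 6665 and 9181 at 2 dpi, 5593, 11352 and 13750 at 5 dpi, and 11732, 15402 and 15425 at 7 dpi. The smallest theta of a spot was lower in deeper spots (rho with UMI count -0.82, -0.75 and -0.76 over the 859, 933 and 966 spots), so each ratio was also formed within groups of spots of like depth. Whether hemoglobin genes were among the marker genes of the deconvolution is not given in the sources used here, so theta may not be independent of hemoglobin.

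At 2 dpi 2 of 27 types (7.41%) were higher by at least 1.5-fold in hemoglobin-rich spots, and 1 (3.7%) was lower by as much. At 5 dpi the counts were 1 higher (3.7%) and 6 lower (22.2%), and at 7 dpi 3 higher (11.1%) and 13 lower (48.1%). Within depth groups 4 were higher and 1 lower at 2 dpi (14.8% and 3.7%), 1 higher and 4 lower at 5 dpi (3.7% and 14.8%), and 2 higher and 10 lower at 7 dpi (7.41% and 37%). By these counts the separation of the classes by cell type was widest at 7 dpi. Hemoglobin-free spots made up 72.6%, 14.5% and 8.39% of the sections in time order, so the classes compared were not alike between sections. Type IIx myonuclei were the only type higher by at least 1.5-fold in all 3 sections, over all spots and within depth groups alike. No type was lower by as much in all 3.

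**Figure D2:**
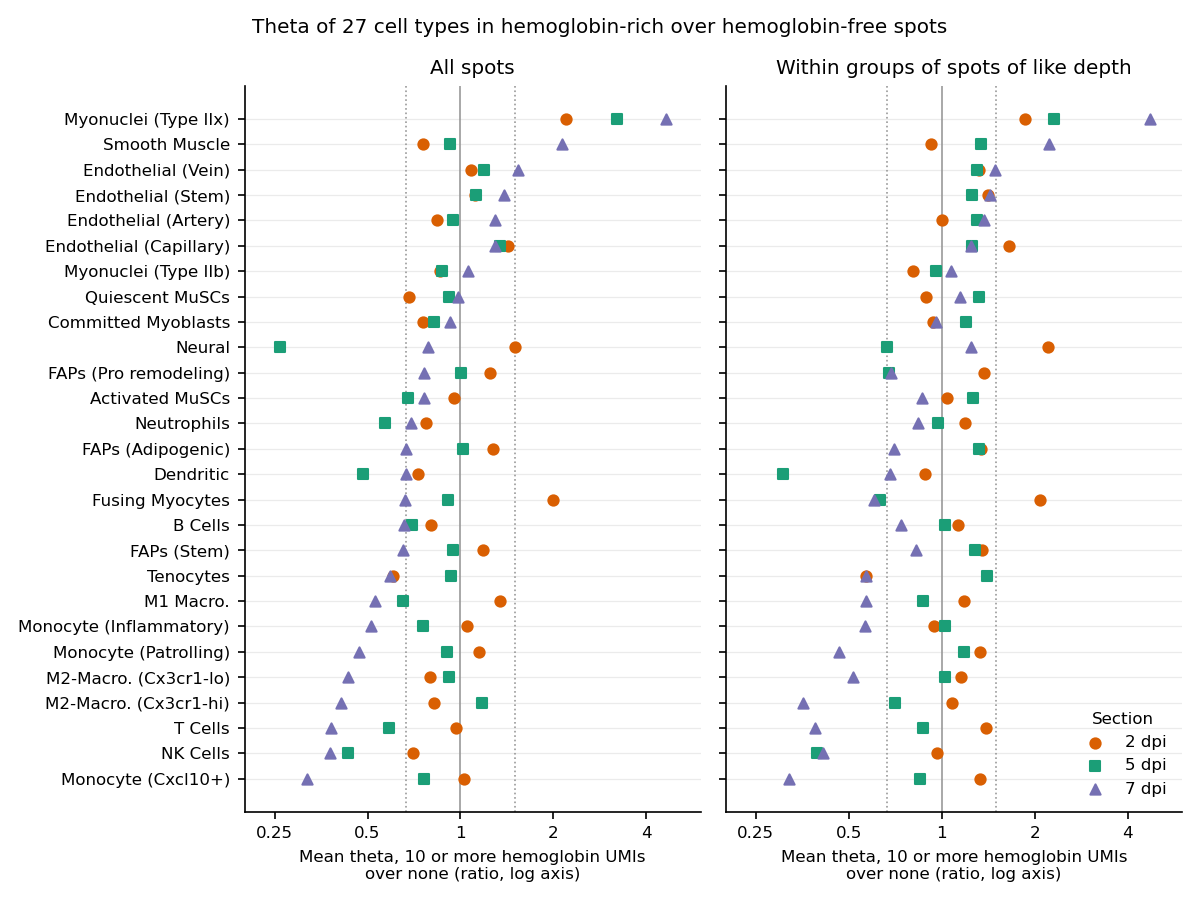
Ratio of mean theta in spots with 10 or more hemoglobin UMIs over spots with none (x axis, log scale) for 27 cell types (y axis, ordered by the ratio at 7 dpi), with 1 symbol per section, over all spots on the left and within groups of spots of like depth on the right. The solid line marks a ratio of 1 and the dotted lines a 1.5-fold difference either way. Type IIx myonuclei lie beyond the upper dotted line in all 3 sections in both panels, and the immune types at 7 dpi lie to the left of 1 in both.

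Type IIx myonuclei, the nuclei of the more oxidative fast fibers, had a mean theta of 0.0477 in hemoglobin-free and 0.1045 in hemoglobin-rich spots at 2 dpi, a ratio of 2.19. For 5 dpi the means were 0.0542 and 0.174, a ratio of 3.21, and at 7 dpi 0.0266 and 0.123, a ratio of 4.64. Spots with 1 to 9 hemoglobin UMIs lay between the other two classes in each section, with means of 0.0658, 0.111 and 0.0837. The spread over spots was wide. The quartiles at 7 dpi were 0.00200 and 0.0267 in hemoglobin-free spots (median 0.00629) and 0.01885 and 0.195 in hemoglobin-rich spots (median 0.0823). Those at 5 dpi were 0.00495 and 0.0682 (median 0.0172) against 0.0295 and 0.2795 (median 0.155).

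The result at 2 dpi was much weaker than its mean. There the medians were 0.0116 and 0.01945, and the lower quartile was in fact lower in hemoglobin-rich (0.00334) than in hemoglobin-free spots (0.00469). Within depth groups the ratio was 1.86, but of 4 depth groups with spots of both classes only 2 had the higher mean in hemoglobin-rich spots, and the deepest group carried the difference (0.206 against 0.0740). In myofiber-rich spots at 2 dpi, those with a summed myonuclei theta of at least 0.8, the ratio was 1.28 over 9 hemoglobin-rich spots. In the later sections the mean was higher in hemoglobin-rich spots in all 5 depth groups. The ratios there were 2.30 and 4.71 within depth groups, and 4.23 and 3.83 in myofiber-rich spots. The latter were not matched for depth, with medians of 5749 UMIs in hemoglobin-free and 14385 in hemoglobin-rich spots at 5 dpi. Only 15 myofiber-rich spots at 7 dpi were hemoglobin-free. In spots that were not myofiber-rich the ratios were 1.76 at 5 dpi (medians 0.0242 without hemoglobin and 0.0350 in hemoglobin-rich spots) and 3.87 at 7 dpi. For 2 dpi the ratio in such spots was 3.15, while the medians went the other way, at 0.00994 and 0.00579.

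**Figure D3:**
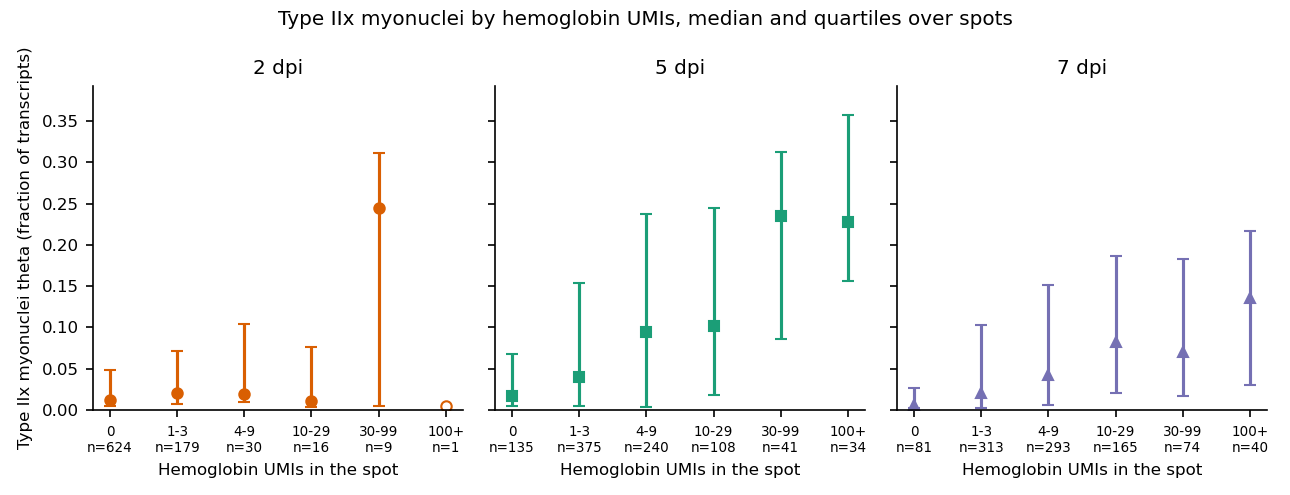
Theta of type IIx myonuclei (y axis, fraction of transcripts) by the number of hemoglobin UMIs in the spot (x axis, in 6 bins with the number of spots below each), with 1 panel per section. Symbols are medians, bars run from the lower to the upper quartile over spots, and the open symbol is a bin of 1 spot. The median at 5 dpi goes from 0.0172 without hemoglobin to 0.228 in spots with 100 or more hemoglobin UMIs, and at 7 dpi from 0.00629 to 0.136.

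The rise along the bins was stepwise at 5 dpi, where the median theta of type IIx myonuclei was 0.0172, 0.0399, 0.0944, 0.102, 0.235 and 0.228 from the lowest to the highest bin of hemoglobin UMIs. At 7 dpi it was 0.00629, 0.0200, 0.0429, 0.0829, 0.0705 and 0.136. At 2 dpi the bins under 30 UMIs stayed between 0.0114 and 0.0205, and the 9 spots with 30 to 99 UMIs had a median of 0.244. Over all spots Spearman's rho between hemoglobin percentage and type IIx theta was 0.10, 0.22 and 0.32 in time order. Ordered by rho, type IIx myonuclei were at rank 1 of the 27 types at 5 and 7 dpi and at rank 4 at 2 dpi, where the highest value was 0.14 for adipogenic FAPs. All these correlations were weak, and the spots share a library.

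Type IIb myonuclei, of the glycolytic fibers, did not share this pattern. Their mean theta in hemoglobin-free and hemoglobin-rich spots was 0.639 and 0.547 at 2 dpi, 0.675 and 0.588 at 5 dpi, and 0.568 and 0.599 at 7 dpi, so the ratio was 0.856, 0.871 and 1.06. Both myonuclei types added together had ratios of 0.948, 1.04 and 1.22. The share of type IIx within the myonuclei theta of a spot had a median of 2.57% in hemoglobin-free, 7.86% in middle and 19.5% in hemoglobin-rich spots at 5 dpi. For 7 dpi the medians were 1.44%, 6.34% and 11.5%, and at 2 dpi 2.21%, 3.65% and 5.46%. At 5 and 7 dpi the ratio of type IIx theta (3.21 and 4.64) was thus larger than that of both types together. The amount of myofiber differed too at 7 dpi. Summed myonuclei theta had a mean of 0.594 in hemoglobin-free and 0.723 in hemoglobin-rich spots there.

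Read from the side of the fibers, the share of hemoglobin-rich spots rose with type IIx theta at 5 and 7 dpi. At 7 dpi it was 16.7% of the 300 spots with a type IIx theta under 0.01, 30.4% of 362 spots at 0.01 to 0.1, 36.9% of 225 spots at 0.1 to 0.3 and 45.6% (34.3 to 57.2%) of the 79 spots at 0.3 or more. The shares at 5 dpi, in the same order, were 11.1%, 15.4%, 26.9% and 33.3%. Pooled over the spots of a level, hemoglobin was 0.0570%, 0.136%, 0.183% and 0.251% of UMIs at 7 dpi, and 0.0645%, 0.0611%, 0.191% and 0.205% at 5 dpi. Thinned to 5000 UMIs, the share of spots with any hemoglobin UMI was 59.5%, 75.1%, 79.4% and 87.9% at 7 dpi. For 5 dpi the thinned share was 64.0% at the lowest level and 79.0% and 77.1% at 0.1 to 0.3 and at 0.3 or more, so the order along all 4 levels held at this depth at 7 dpi and not at 5 dpi. Those at 2 dpi were 3.17%, 1.49%, 4.55% and 11.8%, and the last rested on 4 of 34 spots.

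**Figure D4:**
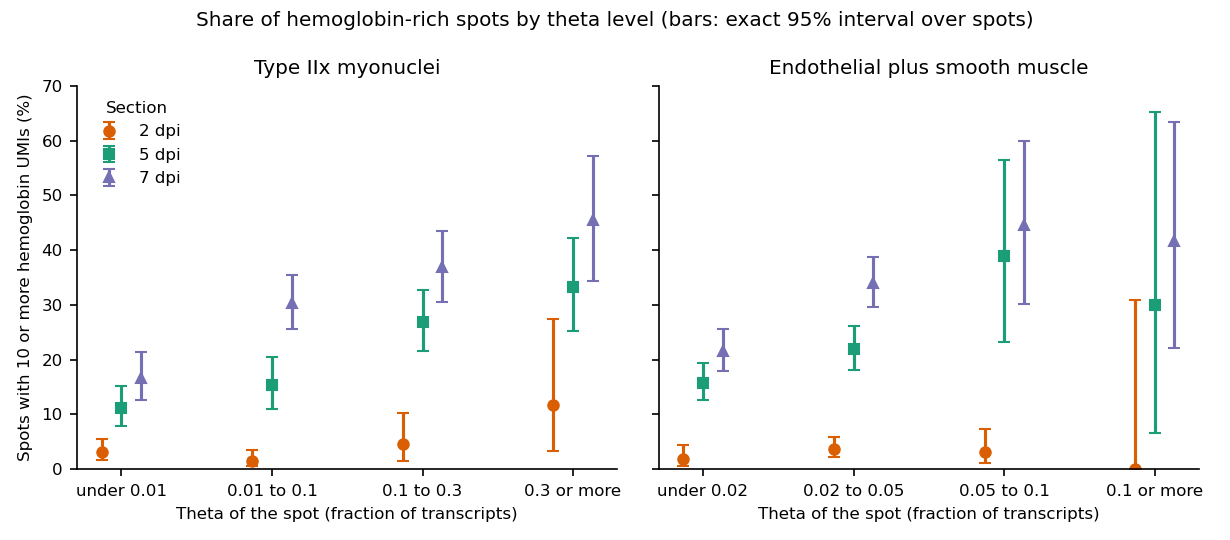
Share of spots with 10 or more hemoglobin UMIs (y axis, percent) by the spot's theta of type IIx myonuclei (left) or of endothelial types plus smooth muscle (right), with 1 symbol per section and bars for the exact 95% interval over spots. The share at 7 dpi goes from 16.7% to 45.6% along type IIx theta, and from 21.5% to 44.7% over the first 3 levels of vessel theta before 41.7% at the last.

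The cells of blood vessels were examined next. Endothelial cells line every vessel and were given as 4 types (artery, capillary, vein and stem-like). Their summed theta in hemoglobin-free and hemoglobin-rich spots was 0.0279 and 0.0311 at 2 dpi, 0.0169 and 0.0194 at 5 dpi, and 0.0159 and 0.0219 at 7 dpi, which gave ratios of 1.12, 1.15 and 1.38. Spearman's rho with hemoglobin percentage was 0.085, 0.14 and 0.28. Endothelial theta was thus slightly higher with hemoglobin in each section, by less than the 1.5-fold used for a call. The quartiles of the classes overlapped, at 0.00901 and 0.0200 in hemoglobin-free against 0.0127 and 0.0241 in hemoglobin-rich spots at 7 dpi.

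By type, the ratio for capillary endothelial cells was 1.42, 1.35 and 1.29 in time order. Only this type and type IIx myonuclei were above 1.25 in all 3 sections over all spots. Vein endothelial cells had 1.08, 1.19 and 1.53, and stem-like endothelial cells 1.11, 1.12 and 1.39. Artery endothelial cells had 0.841, 0.944 and 1.30. Within depth groups all 4 types were at or above 1 in every section, from 1.002 for artery at 2 dpi to 1.65 for capillary at 2 dpi. The direction toward higher endothelial theta was therefore shared by the 4 types once depth was held alike, beside a median over all 27 types of 1.18, 1.02 and 0.739. The high mean of vein endothelial cells at 7 dpi was carried by few spots, as the medians of the classes were 0.00263 and 0.00285.

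Smooth muscle cells, which surround arteries and larger veins, had ratios of 0.757, 0.926 and 2.14 in time order. The means at 7 dpi were 0.005275 and 0.0113, but the medians were 0.00430 and 0.00447. The share of spots with a smooth muscle theta of at least 0.01 was 9.88% in hemoglobin-free and 22.2% in hemoglobin-rich spots at 7 dpi, 12.6% and 20.8% at 5 dpi, and 20.8% and 7.69% at 2 dpi. Spots at or above this theta were thus more frequent among hemoglobin-rich spots at 5 and 7 dpi. They were less frequent at 2 dpi, where they were 2 of the 26. These shares were not matched for depth. Within depth groups the ratios of mean smooth muscle theta were 0.922, 1.34 and 2.23 in time order. In myofiber-rich spots alone the ratios of mean smooth muscle theta were 0.653, 2.05 and 1.55, and those of summed endothelial theta 1.20, 1.56 and 1.69. In the remaining spots they were 0.739, 0.807 and 2.81 for smooth muscle and 0.985, 0.915 and 1.40 for endothelial theta. At 5 dpi the means of the vessel types were therefore higher with hemoglobin in myofiber-rich spots and lower in the others. In those others, rho with hemoglobin percentage was slightly positive, at 0.063 for endothelial and 0.069 for smooth muscle theta. The split was not matched for depth. The others at 5 dpi had a median of 5560 UMIs without hemoglobin and 12411.5 when hemoglobin-rich.

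Endothelial and smooth muscle theta were added to rank spots by vessel content. At 7 dpi hemoglobin made up 0.0728% of UMIs in the 455 spots with a vessel theta under 0.02, 0.169% in 440 spots at 0.02 to 0.05, 0.398% in 47 spots at 0.05 to 0.1 and 0.231% in 24 spots at 0.1 or more. Without the top spot of each level the values were 0.0656%, 0.160%, 0.302% and 0.189%. At 5 dpi they were 0.101%, 0.149%, 0.167% and 0.116%, and at 2 dpi 0.0102%, 0.0390%, 0.0286% and 0.00280%. Without the top spot of each level those at 5 dpi became 0.0937%, 0.139%, 0.110% and 0.0529%, so the order of the lowest and the highest level there rested on 1 spot. The highest level held 10, 10 and 24 spots at 2, 5 and 7 dpi, and by pooled percentage it was not the richest in any section. By the median spot at 7 dpi it was the richest, with hemoglobin percentages of 0.0226%, 0.0503%, 0.0769% and 0.164% along the 4 levels. The share of spots with a hemoglobin UMI after thinning to 5000 UMIs had the same order, at 66.8%, 76.3%, 83.9% and 89.0%. The last rested on 12 of the 24 spots. Depth fell along these levels, with medians of 16456, 14430, 11830 and 5018 UMIs. Its part in the median percentages was not tested.

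Theta was also rescaled to sum to 1 over the 25 types without myonuclei, to compare the cells between the fibers. The ratios of the 4 endothelial types at 7 dpi then ranged from 1.57 to 2.52 and that of smooth muscle was 2.50, against a median over the 25 types of 1.05. Those at 5 dpi ranged from 1.29 to 1.55 with smooth muscle at 1.52, against a median of 0.910. At 2 dpi they ranged from 0.655 to 1.099 with smooth muscle at 0.551, against a median of 0.877, and the rho of hemoglobin percentage with rescaled endothelial theta was -0.069. Among the cells outside myofibers, vessel types were thus higher with hemoglobin at 5 and 7 dpi and mostly not at 2 dpi. By rho this was not particular to them. The rho of rescaled theta with hemoglobin percentage at 7 dpi was 0.256 to 0.333 for endothelial types and 0.345 for smooth muscle. It was 0.382 for neural cells, 0.296 for neutrophils, 0.283 for quiescent muscle stem cells and 0.256 for B cells, and lowest for fusing myocytes (-0.277). Rescaled values were not matched for depth. Of the 25 types, 6 (24%) at 7 dpi and 2 (8%) at 5 dpi were higher by at least 1.5-fold on this scale, and at 7 dpi 5 of the 6 were the endothelial types and smooth muscle. The corresponding count at 2 dpi was 1 (4%), fusing myocytes at 2.00. Lower by as much were 5 (20%), 2 (8%) and 4 (16%) of the 25 types at 2, 5 and 7 dpi.

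Leukocytes that arrive with the blood were not higher over all hemoglobin-rich spots at 5 and 7 dpi. The 7 types examined were neutrophils, 3 kinds of monocytes, and B, T and NK cells. At 7 dpi all 7 had a lower mean theta in hemoglobin-rich than in hemoglobin-free spots, with ratios from 0.318 for Cxcl10+ monocytes to 0.689 for neutrophils, and 6 of the 7 were lower by at least 1.5-fold. Most other types were also lower, since 20 of all 27 types were below 1 at 5 and at 7 dpi and 14 of 27 at 2 dpi. NK cells had a ratio of 0.378 and T cells 0.381, at mean theta values of 0.00489 and 0.00533 in hemoglobin-free spots. At 5 dpi all 7 were also below 1, from 0.433 for NK cells to 0.903 for patrolling monocytes, and at 2 dpi 4 of 7 were below 1, from 0.702 to 1.15.

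Depth moved with these small values. Within depth groups the 7 leukocyte types at 7 dpi stayed below 1 (0.319 to 0.837), but at 5 dpi they ranged from 0.394 to 1.18 with 3 above 1, and at 2 dpi from 0.941 to 1.39 with 5 above 1. Rescaled without myonuclei they ranged from 0.524 to 1.14 at 7 dpi, where neutrophils and B cells were above 1. The lower leukocyte theta over all spots therefore held within depth groups for all 7 types at 7 dpi and not in the earlier sections. Monocytes and macrophages together had a mean theta of 0.0755 in hemoglobin-free, 0.0507 in middle and 0.0320 in hemoglobin-rich spots at 7 dpi, a ratio of 0.423 (0.417 within depth groups). That ratio was 0.899 at 5 dpi and 1.08 at 2 dpi.

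The remaining 13 types, of progenitors, stroma, macrophages, dendritic cells and nerve, ranged in ratio from 0.604 to 1.99 at 2 dpi, from 0.259 to 1.17 at 5 dpi and from 0.409 to 0.984 at 7 dpi. At 7 dpi all 13 were below 1, and 7 by at least 1.5-fold, beside 20 of all 27 types below 1. Within depth groups 2 of the 13 were above 1 at 7 dpi, neural cells at 1.24 and quiescent MuSCs (muscle stem cells) at 1.14. Neural theta also went up with hemoglobin on other measures at 7 dpi, in the opposite direction to its ratio of 0.787 over all spots. Its rho with hemoglobin percentage was 0.26, rank 2 of the 27 types. Pooled hemoglobin was 0.120% in the 890 spots with a neural theta under 0.01, 0.331% in 45 spots at 0.01 to 0.05 and 0.682% in 31 spots at 0.05 or more (0.580% without the top spot of that level). Depth moved with this order, as the median spot of the 3 levels had 15751.5, 4890 and 2161 UMIs. Given the UMI count, the rho of neural theta with hemoglobin percentage at 7 dpi was only 0.105. It was then below that of type IIx myonuclei (0.306) and of the endothelial types (0.144 to 0.183). The part of depth in the pooled values was not tested. Neural and fusing myocyte values are given here after they were seen. Fusing myocytes fell along hemoglobin at 7 dpi in the pooled values too. Hemoglobin was 0.285% of UMIs in the 120 spots with a fusing myocyte theta under 0.01, 0.157% at 0.01 to 0.1, 0.0948% at 0.1 to 0.2 and 0.0602% in the 250 spots at 0.2 or more. The shares of hemoglobin-rich spots in the same order were 52.5%, 29.1%, 22.2% and 22.4%. Pooled hemoglobin at 5 dpi was 0.0995%, 0.205%, 0.122% and 0.0515%. Spots richest in newly fusing muscle cells thus had the lowest pooled hemoglobin percentage in both of these sections. That level was also the deepest, with a median of 13861 UMIs at 5 dpi and 20915 at 7 dpi. The part of depth was not tested. At 2 dpi the highest level (12 spots) had 0.0688%, but 0.00101% without its top spot. In myofiber-rich and in other spots, the ratio of mean fusing myocyte theta was 1.59 and 1.15 at 5 dpi. At 7 dpi it was 0.830 and 0.934.

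The transcripts left out of the deconvolution were compared last. Mitochondrial transcripts, which oxidative fibers hold in abundance, made up on average 13.7% of UMIs in hemoglobin-free, 18.2% in middle and 23.2% in hemoglobin-rich spots at 7 dpi, a ratio of 1.69. Means at 5 dpi were 21.1%, 22.2% and 27.1%, a ratio of 1.28. Those at 2 dpi were 26.99%, 25.7% and 26.1%, a ratio of 0.966. Mitochondrial percentage was higher with hemoglobin in each of 5 depth groups at 7 dpi, in 4 of the 5 at 5 dpi, but in only 1 of 4 at 2 dpi.

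Ribosomal protein transcripts moved the other way at the later times. Their mean was 9.70% in hemoglobin-free, 8.41% in middle and 6.95% in hemoglobin-rich spots at 7 dpi, a ratio of 0.717, and 7.49%, 7.95% and 6.88% at 5 dpi, a ratio of 0.918. At 2 dpi it was 6.20%, 6.55% and 6.76%, a ratio of 1.09. Both measures moved with the myofiber content of the spot. In myofiber-rich spots alone the mitochondrial ratio was 0.903, 1.15 and 1.30 at 2, 5 and 7 dpi and the ribosomal protein ratio 1.17, 0.953 and 0.816. The direction at 7 dpi was therefore the same in myofiber-rich spots, at a smaller size for mitochondrial transcripts, over 128 hemoglobin-rich and 15 hemoglobin-free spots.

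**Figure D5:**
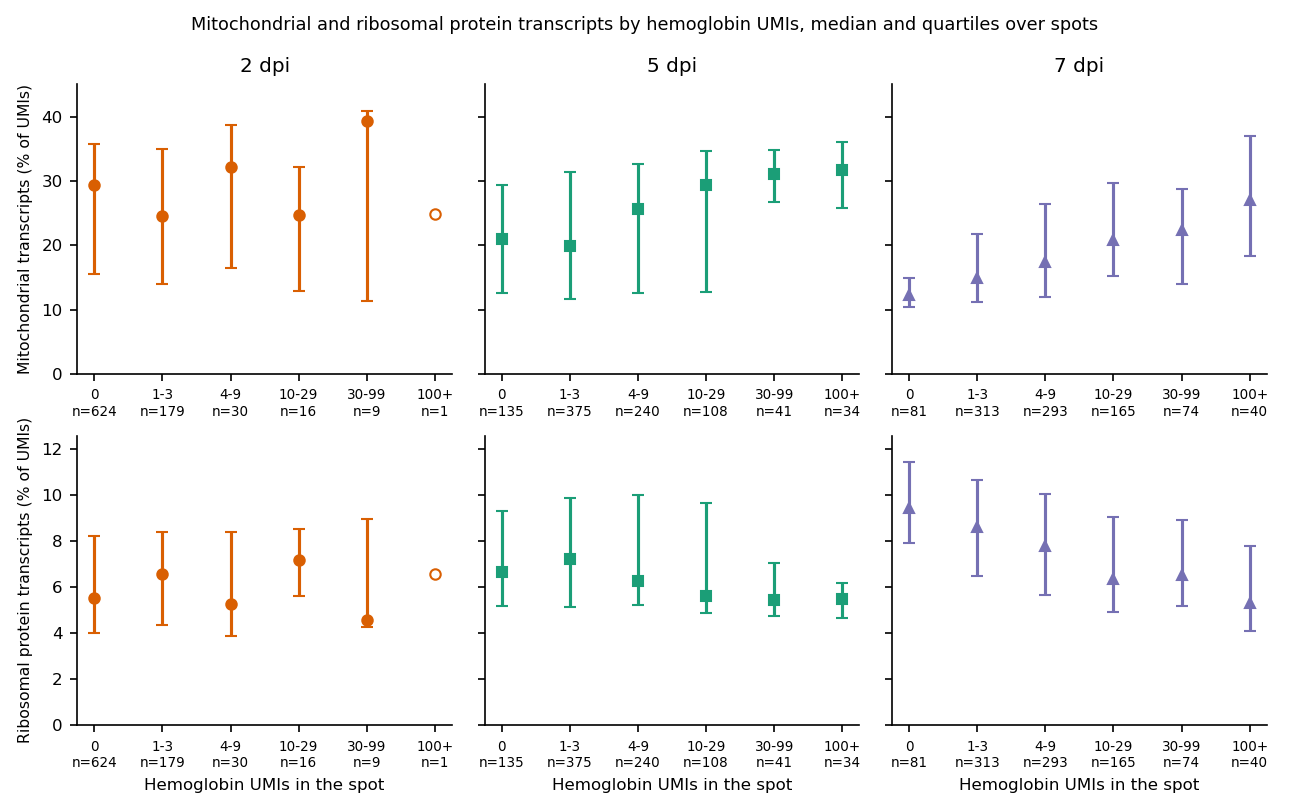
Mitochondrial (top) and ribosomal protein transcripts (bottom) as a percent of a spot's UMIs (y axes) by the number of hemoglobin UMIs in the spot (x axis, in 6 bins with the number of spots below each), with 1 column of panels per section. Symbols are medians, bars run from the lower to the upper quartile over spots, and the open symbol is a bin of 1 spot. The mitochondrial median at 7 dpi goes from 12.3% without hemoglobin to 27.1% in spots with 100 or more hemoglobin UMIs, and the ribosomal protein median from 9.43% to 5.29%.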

How the data were processed

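Spot tables of 3 Visium sections of notexin-injured mouse tibialis anterior, 1 each at 2, 5 and 7 dpi, were read. The sections were assigned by the treatment in the sample labels. Per the submitters' processing notes the data were made with Space Ranger 1.0 and Seurat 3.2.1 on mm10, and per the study's methods spots over tissue were picked by hand. The authors deposited UMI counts per spot without normalization (5710385, 10803761 and 14734531 in all). They also deposited the percent of UMIs from hemoglobin, mitochondrial and ribosomal protein genes, and theta fractions for 27 cell types from BayesPrism, whose marker genes left out mitochondrial and ribosomal protein genes. The image alignments were not used, because they give positions without barcodes.

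Hemoglobin UMIs were the hemoglobin percent times the UMI count over 100, whole to within 1e-06 in every spot. No spot was filtered. Ratios are means over spots with 10 or more hemoglobin UMIs divided by means over spots with none. Depth-matched ratios averaged class means over 5 groups of spots by UMI count that held at least 5 spots of each class (3 groups at 2 dpi, 5 at 5 and 7 dpi). Thinned shares are hypergeometric expectations. Cell types given with values were the endothelial, smooth muscle, myonuclei, monocyte, lymphocyte and neutrophil types and any type 1.5-fold apart in the same direction in all 3 sections, with the 5 spots richest in hemoglobin per section. Fusing myocytes, neural cells, quiescent MuSCs, monocytes and macrophages together, and the level bins were added after their values were seen. Hemoglobin, the classes and the lists were chosen with earlier results of these data known. The code was tested on simulated data. Python 3.11.15, pandas 2.3.3, scipy 1.17.1 and matplotlib 3.10.9 were used.

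Alternatives were other limits of hemoglobin UMIs, thinning, medians, depth groups, classes by hemoglobin percent, rescaled theta and leaving out the top spot. Thinning of the hemoglobin-rich share, myofiber-rich spots only and the type IIx ratio without the top spot were added after seeing the data.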

Additional observations from a re-analysis of the deposited data

Results flagged for a closer look

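Several cell types had a higher mean theta in hemoglobin-rich than in hemoglobin-free spots in 1 section and a lower mean in another. These differences between sections were not tested. Fusing myocytes had a ratio of mean theta of 1.99 at 2 dpi and 0.661 at 7 dpi. The ratio of neural theta was 1.499 at 2 dpi, where the spot richest in hemoglobin was also the spot with the highest neural theta, and 0.259 at 5 dpi. Within depth groups it was 2.21 at 2 dpi and 0.662 at 5 dpi. These neural means leaned on few spots. The medians at 2 dpi went the other way, at 0.00430 in hemoglobin-free and 0.00389 in hemoglobin-rich spots. At 5 dpi they were 0.00267 and 0.00138, and the highest neural theta of a hemoglobin-free spot was 0.555. Over all spots at 5 dpi the rho of neural theta with hemoglobin percentage was 0.083. Adipogenic FAPs had 1.27 at 2 dpi and 0.668 at 7 dpi, and pro-remodeling FAPs had 1.25 and 0.761. The values at 2 dpi rest on 26 hemoglobin-rich spots.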

How the results depend on the processing

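No paired analysis was possible because each time point had 1 section and no result comes from a test. The share of hemoglobin-rich spots at 2, 5 and 7 dpi became 5.01%, 36.9% and 51.4% with a limit of 5 hemoglobin UMIs, and 1.98%, 11.7% and 16.4% with a limit of 20. Thinned to 5000 UMIs it was 11.9% and 12.6% at 5 and 7 dpi. The share with any hemoglobin UMI was 22.99%, 71.7% and 71.9% thinned to 5000 UMIs, and 10.6%, 35.4% and 40.4% thinned to 1000. The hemoglobin percentage was 0.0302%, 0.121% and 0.191% as a mean over spots, 0, 0.0287% and 0.0353% as a median, and 0.0198%, 0.121% and 0.124% without the top spot. The type IIx ratio became 1.68, 9.05 and 13.1 by medians. It was 1.62 at 2 dpi with classes by hemoglobin percent, 2.30 at 5 dpi within depth groups, and 1.28 and 4.23 at 2 and 5 dpi in myofiber-rich spots. The endothelial ratio was 1.56 at 5 dpi in myofiber-rich spots and 2.14 at 7 dpi rescaled without myonuclei. The mitochondrial ratio at 7 dpi was 1.30 in myofiber-rich spots, and the endothelial rho at 2 dpi was -0.069 after rescaling. Ratios changed their side of 1 in 10 of 54 cases within depth groups, 8 of 39 after rescaling, 6 of 54 with classes by hemoglobin percent, 3 of 54 by medians and 1 of 12 in myofiber-rich spots. Within depth groups these were, at 2 dpi, neutrophils (1.19), B cells (1.13), T cells (1.39), artery endothelial cells (1.002) and inflammatory monocytes (0.941). At 5 dpi they were B cells and inflammatory monocytes (both 1.02), artery endothelial cells (1.30), smooth muscle (1.34) and patrolling monocytes (1.18). At 7 dpi B cells and neutrophils turned with classes by hemoglobin percent (1.08 and 1.03) and after rescaling (1.05 and 1.14). The other turns under those 4 settings were at 2 or 5 dpi. The cause of these moves was not tested. Under the alternatives run, 56 values of the main comparisons moved little, within a factor of 1.25 for ratios, and 34 moved by more. For single cell types 111 values moved little and 38 moved by more. Another 7 were reversed, from a ratio at least 1.25-fold away from 1. Some ratios counted as little moved lay near 1 and are among those that changed their side of it. Depth limits the lowest classes, since at 2 dpi a spot with no hemoglobin UMI had a median of 5549.5 UMIs.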

Other observations

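The 3 sections shared array barcodes, which mark the same position on each capture area and not the same cells. There were 568 shared barcodes between 2 and 5 dpi, 739 between 2 and 7 dpi and 593 between 5 and 7 dpi. Over these positions Spearman's rho of the hemoglobin percentage was -0.019, -0.049 and -0.088. Both spots of a pair were hemoglobin-rich in 4, 8 and 29 cases, where 18 and 129, 22 and 221, and 129 and 138 of the shared positions were hemoglobin-rich in the earlier and the later section. Mitochondrial percentage at the same positions had a rho of 0.0097, 0.67 and -0.20, so the sections at 2 and 7 dpi were alike in the placement of mitochondrial transcripts on the array and not in that of hemoglobin.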
